A study of Mus musculus with 16 samples.

Results

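The miR-23, miR-24 and miR-27 clusters are a pair of microRNA (miRNA) gene clusters that each hold 3 hairpins, and 5 mature miRNAs of these clusters were followed in the prefrontal cortex of PS19 and wild-type (WT) mice. The 5 members, mmu-miR-23a-3p, mmu-miR-23b-3p, mmu-miR-24-3p, mmu-miR-27a-3p and mmu-miR-27b-3p, named below without the mouse prefix, were taken by name from a small RNA table, where they were 5 of 1241 mature miRNA entries and 5 of 18488 features in all. The table held 16 small RNA libraries, 8 labelled PS19 and 8 labelled WT, from the prefrontal cortex of separately labelled mice. PS19 mice were heterozygous (PS19+/-) for a mutant human tau (MAPT) transgene driven by the mouse prion promoter on a mixed B6;C3 background, and WT mice were littermates without it. Mice were adults of a single age with equal numbers of males and females in each genotype, but the sex of each library was not given. The transgene was present throughout life and was not restricted to 1 brain cell type, and a single transgenic line was used. Whole tissue was sequenced, so fewer cells of a type and less RNA per cell cannot be told apart.

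The 3 hairpins of each cluster are transcribed together as one long primary transcript, which Drosha and then Dicer cut into a short duplex, and one strand of that duplex is loaded into Argonaute to repress messenger RNAs that pair with its seed, the stretch near the 5′ end. The members are known from endothelial cells, where miR-23 and miR-27 promote vessel growth by repressing Sprouty2 and Sema6A, and from the brain, where miR-23a represses lamin B1 in oligodendrocytes and miR-23b and miR-27b repress the apoptosis factor Apaf1 in neurons. The miR-27 family also represses the lipid regulator PPARγ, and miR-24 represses cell cycle genes such as Myc and E2f2.

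The mature sequences are shown because the miR-27 pair differs by a single base, which is what separates miR-27 3p reads of the 2 clusters. miR-24-3p is the same from both. The sequences were taken from RefSeq on GRCm38.p6, where 4 of the 5 members matched and miR-23b-3p was not found. Capitals mark the seed, bases 2 to 8 from the 5′ end.
miR-23a-3p: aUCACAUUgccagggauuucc
miR-27a-3p: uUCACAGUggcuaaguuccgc
miR-27b-3p: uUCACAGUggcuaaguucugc
miR-24-3p: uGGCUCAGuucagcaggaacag
miR-27a-3p and miR-27b-3p shared the seed UCACAGU and all 21 bases except 1, C19U, counted from 1 at the 5′ end with the base of miR-27a-3p first. The seed of miR-23a-3p, UCACAUU, and that of miR-24-3p, GGCUCAG, were each different from it. The split of miR-27 3p reads between both genes therefore rests on position 19 of 21, and how the authors' pipeline assigned reads that fit both was not given in the sources used here. How it assigned reads that fit both miR-23a-3p and miR-23b-3p was likewise not given, and the bases that separate that pair are not shown here.

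The a cluster lay on chromosome 8, from 84208518 to 84208921 on the plus strand of GRCm38.p6, and held Mir23a, Mir27a and Mir24-2 within 404 bases. It lay outside any protein-coding gene, and the last 2 bases of Mir24-2 overlapped the first exon of the lincRNA Gm26532. The b cluster lay on chromosome 13, from 63300484 to 63301275 on the plus strand, and held Mir23b, Mir27b and Mir24-1 within 792 bases. It lay inside the protein-coding gene 2010111I01Rik on the same strand, where Mir23b was outside the annotated exons and Mir27b and Mir24-1 were each within an annotated exon of at least 1 transcript. Fancc, a DNA repair gene, ran across the b cluster on the opposite strand with no exon there. Each copy of Mir24 had an antisense hairpin, Mir3074-2 and Mir3074-1, and reads of the strands could not be told apart where counting did not use strand. The mature miR-3074-5p was listed at a mean normalized signal of 3.90, far below every member.

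The hairpins below show where each pair of clusters can be told apart outside the 3p arms, with both mature arms in capitals and the 5p arm first.
Mir27a: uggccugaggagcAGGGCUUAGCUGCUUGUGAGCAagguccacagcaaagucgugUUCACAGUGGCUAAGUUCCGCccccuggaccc
Mir27b: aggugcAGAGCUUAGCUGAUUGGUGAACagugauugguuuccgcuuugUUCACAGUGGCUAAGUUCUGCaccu
Mir24-2: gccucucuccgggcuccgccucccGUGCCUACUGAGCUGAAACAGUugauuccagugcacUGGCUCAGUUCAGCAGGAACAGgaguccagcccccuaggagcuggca
Mir24-1: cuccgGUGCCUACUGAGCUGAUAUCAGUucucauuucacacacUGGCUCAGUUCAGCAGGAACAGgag
The 5p arms of Mir27a and Mir27b shared only their first 2 bases before they differed, and those of Mir24-1 and Mir24-2 shared their first 16. miR-24-1-5p and miR-24-2-5p are therefore the only mature products that tell the Mir24 copies apart.

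All values are normalized signal, that is read counts that the authors divided by 1 size factor per library, and ± is the SD. From the step between values, 13.2 to 23.1 M reads per library were recovered (M stands for 1000000), 2.69 to 7.51 M of them on miRNAs. The miRNA share of reads was 25.5% ± 5.40 in PS19 and 26.3% ± 6.24 in WT (n = 8 each). The summed miRNA signal ran from 2.27 M in WT replicate 7 to 7.02 M in PS19 replicate 1, so that libraries differed in the miRNA signal under the authors' scaling, and each member is therefore also given per 1000000 units of miRNA signal. All 8 PS19 libraries and 2 WT libraries (replicates 2 and 4) had codes beginning with G, while 4 WT codes began with F and 2 with A. The meaning of the letter was not given, so genotype and letter cannot be told apart except within the G libraries.

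All 5 members were among the more abundant miRNAs of the cortex. Their mean normalized signal over 16 libraries was 13275 for miR-27b-3p (39th among the mature miRNAs), 13004 for miR-23b-3p (40th), 5342 for miR-24-3p (68th), 3360 for miR-23a-3p (80th) and 1182 for miR-27a-3p (113th). The b cluster member exceeded its a cluster counterpart in 16 of 16 libraries for both pairs. miR-23b-3p was 3.87 times miR-23a-3p by the ratio of means, with a range of 2.21 to 5.42 over libraries. miR-27b-3p was 11.2 times miR-27a-3p, with a range of 6.48 to 16.4.

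The order of the levels below the top pair held in every library. miR-27b-3p and miR-23b-3p did not differ beyond their spread, since miR-27b-3p was the higher in 8 of 16 libraries and their ratio ran from 0.696 to 1.86. miR-23b-3p exceeded miR-24-3p, miR-24-3p exceeded miR-23a-3p, and miR-23a-3p exceeded miR-27a-3p, each in 16 of 16 libraries, with ratios of means of 2.43, 1.59 and 2.84. Summed, the 5 members made up 0.802% of the miRNA signal, 0.812% ± 0.247 in PS19 and 0.793% ± 0.178 in WT, with a range of 0.523% to 1.21% over libraries. Ligation and reverse transcription favor some small RNA sequences over others, so levels of different miRNAs compare their yield in these libraries.

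To ask whether the clusters differed between PS19 and WT mice, each member was compared over the 8 and 8 libraries with limma on log2(value + 1). None of the 5 members changed at an unadjusted p under 0.05, beside 4.0% of all 6024 features tested (241 features) and 2.88% of the 521 mature miRNAs tested. After Benjamini-Hochberg adjustment over all features no feature passed, which is 0% of those tested, and the adjusted limma p-value was 1.0 for every member. Among the 241, 112 (1.86%) were higher and 129 (2.14%) lower in PS19, so that 46.5% were higher, whereas 58.3% were higher when values were scaled to the library total and 62.8% when scaled to the miRNA total.

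miR-23a-3p, from the first hairpin of the a cluster, had a normalized signal of 1153 at the lowest, 2911 at the median and 6008 at the highest of the PS19 libraries. In WT it was 1760, 3700 and 6066. The ranges overlapped almost entirely, and 3 of 8 PS19 libraries lay above the WT median. The log2 difference of PS19 from WT was -0.03 (SE 0.32, 95% interval -0.68 to 0.63, limma p = 0.937), and a two-sided exact permutation test gave p = 0.944.

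miR-23b-3p, its counterpart in the b cluster, ran from 3648 through a median of 12761 to 28380 in PS19, and from 7529 through 13496 to 18026 in WT. Both the lowest and the highest library were PS19, replicates 8 and 3, so the PS19 values enclosed those of WT. The log2 difference was 0.03 (SE 0.31, 95% interval -0.62 to 0.69, limma p = 0.913; exact permutation p = 0.920).

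miR-24-3p, which is processed from both clusters, ran from 2429 through a median of 5069 to 9127 in PS19 and from 2596 through 5907 to 9085 in WT. The extremes of both genotypes nearly coincided. The log2 difference was -0.06 (SE 0.29, 95% interval -0.66 to 0.54, limma p = 0.847; exact permutation p = 0.864).

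miR-27a-3p, the least abundant member, ran from 378 through a median of 1221 to 2979 in PS19 and from 444 through 1085 to 1712 in WT. Its highest library was PS19 replicate 3 and its lowest PS19 replicate 8, and 5 of 8 PS19 libraries lay above the WT median. The log2 difference was 0.24 (SE 0.36, 95% interval -0.51 to 0.98, limma p = 0.516; exact permutation p = 0.565). It was 0.035 without PS19 replicate 3 and turned to -0.14 with the code letter as a term.

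miR-27b-3p, the most abundant member by mean, ran from 4991 through a median of 12450 to 22659 in PS19 and from 5972 through 13494 to 24943 in WT. The highest library here was WT, and 3 of 8 PS19 libraries lay above the WT median. The log2 difference was -0.14 (SE 0.32, 95% interval -0.81 to 0.52, limma p = 0.661; exact permutation p = 0.693). The intervals of all 5 members reach beyond a log2 difference of 0.5 in both directions, so differences of that size in either direction lay within the error of these libraries.

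**Figure D1:**
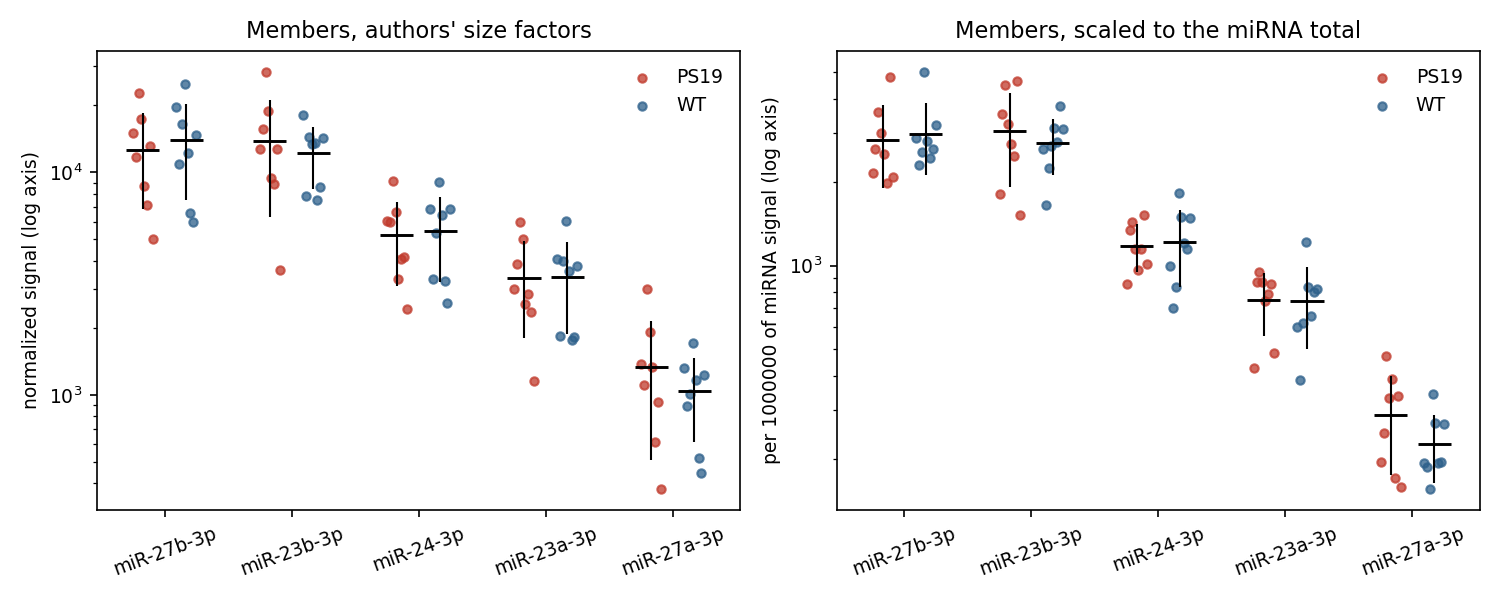
Values of the 5 members in each of the 16 libraries on log axes, by genotype, with the authors' scaling on the left and per 1000000 of miRNA signal on the right. Points are libraries, black bars are means with SD, and PS19 and WT ranges overlap for every member, with miR-27b-3p and miR-23b-3p at the top and miR-27a-3p, from 378 to 2979 on the left, at the bottom.

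**Figure D2:**
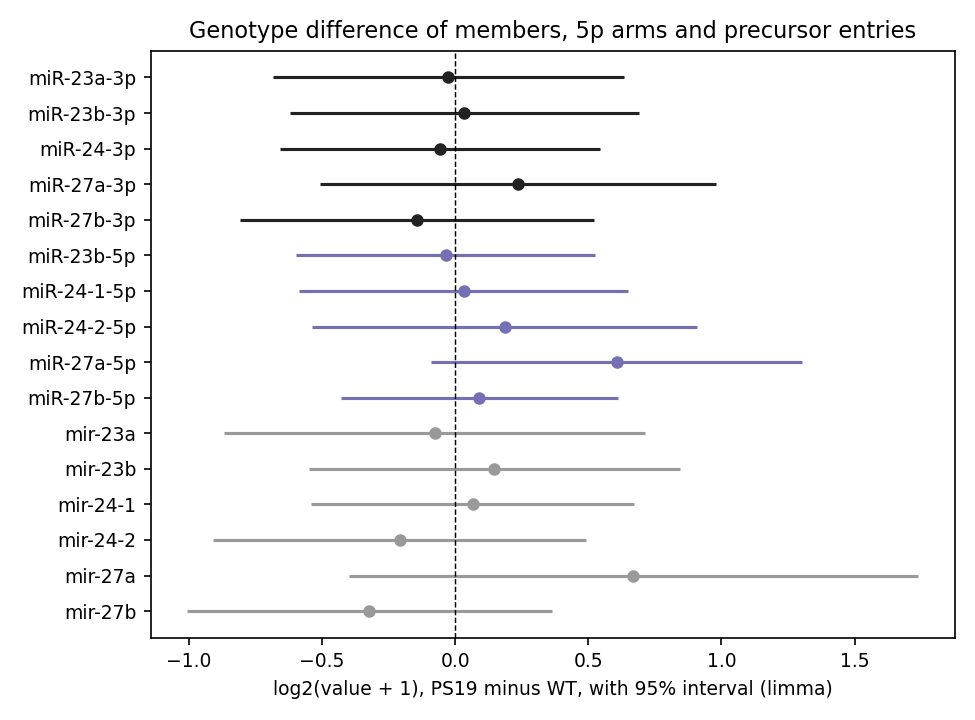
The log2 difference of PS19 from WT on the log2(value + 1) scale, as points with 95% limma intervals, for the members and for the other arms and precursor entries of the same hairpins. Every interval crosses 0, and miR-27a-5p, at 0.61 with an interval from -0.09 to 1.30, lies farthest to the right of 0 for its width.

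Scaling to the miRNA signal narrowed the spread of each member but left the genotypes overlapping. Expressed per 1000000 units of miRNA signal, miR-23a-3p was at 749 ± 192 in PS19 and 743 ± 244 in WT. miR-23b-3p was at 3060 ± 1140 and 2760 ± 634, and miR-24-3p at 1179 ± 236 and 1211 ± 375. miR-27a-3p was at 288 ± 112 in PS19 and 226 ± 62.2 in WT, and miR-27b-3p at 2846 ± 944 and 2986 ± 869 (n = 8 each). The coefficient of variation over 16 libraries fell from 44.0% to 28.4% for miR-23a-3p, from 44.4% to 31.1% for miR-23b-3p, from 39.9% to 25.3% for miR-24-3p, from 54.7% to 36.3% for miR-27a-3p and from 44.9% to 30.2% for miR-27b-3p.

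The balance between the clusters does not depend on a library's scaling, and 9 ratios of members and arms were taken within each library, with exact permutation tests, two-sided, on their log2 values. The ratio of miR-27a-3p to miR-27b-3p, which compares the miR-27 output of both clusters at the same seed, ran from 0.0708 through a median of 0.0925 to 0.154 in PS19. In WT it ran from 0.0609 through 0.0769 to 0.0957. The highest 3 values (PS19 replicates 5, 3 and 4) lay above every WT library, 6 of 8 PS19 libraries lay above the WT median, and the ranges overlapped below that. The log2 ratio was -3.34 ± 0.39 in PS19 and -3.72 ± 0.21 in WT, a difference of 0.38 with an exact permutation p of 0.0261 that became 0.235 after adjustment over the 9 ratios. Without WT replicate 1 or WT replicate 3 the unadjusted exact p was 0.050 or 0.0553, and within the G libraries, 8 PS19 against 2 WT, the difference was 0.40 with an exact p of 0.200.

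The corresponding ratio of miR-23a-3p to miR-23b-3p differed by -0.06 (exact permutation p = 0.722), with 4 of 8 PS19 libraries above the WT median. miR-23a-3p to miR-27a-3p, a ratio within the a cluster, differed by -0.26 (exact p = 0.182), and miR-23b-3p to miR-27b-3p, within the b cluster, by 0.18 (exact p = 0.365). Within the G libraries the miR-23b-3p to miR-27b-3p ratio was higher in PS19 by 0.76 (exact p = 0.0222, the smallest that 8 against 2 libraries can give), and this rests on WT replicates 2 and 4 alone, at ratios of 0.718 and 0.537. miR-24-3p relative to the sum of the miR-27 pair differed by 0.05 (exact p = 0.711). miR-24-2-5p to miR-24-1-5p, the only measure of the balance of the Mir24 copies, differed by 0.15 (exact p = 0.428). No ratio passed after adjustment.

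**Figure D3:**
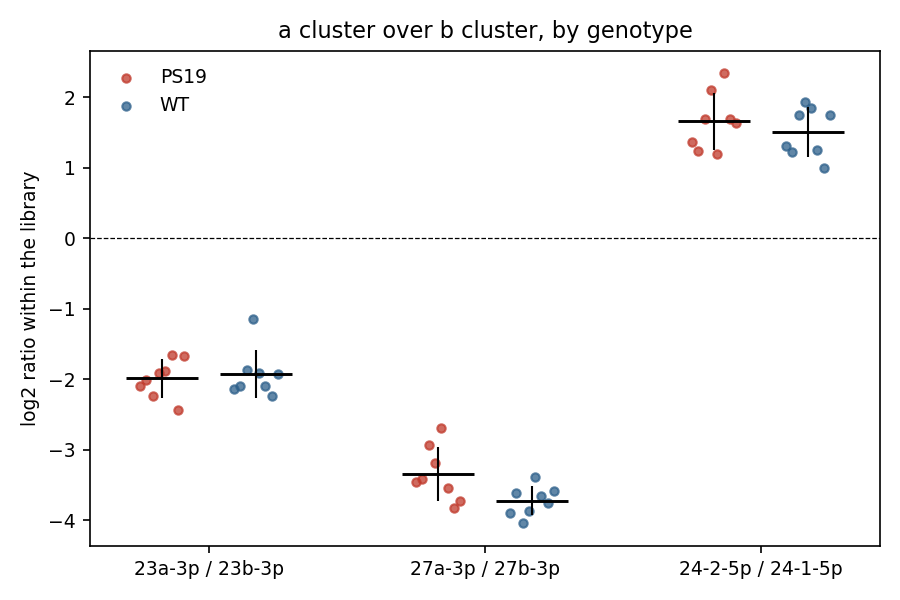
Ratios of an a cluster product to its b cluster counterpart in each library on a log2 scale, by genotype, with 1 point per library and black bars at the mean with SD. The miR-27a-3p to miR-27b-3p ratio has 3 PS19 libraries above all WT libraries, up to a linear ratio of 0.154, while for the miR-23a-3p to miR-23b-3p ratio the lowest libraries are PS19, from 0.184, and the highest is WT replicate 4 at 0.453.

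Each hairpin also gave a 5p arm, the strand that is mostly discarded from these duplexes. Of the reads recovered on both arms of a hairpin over all 16 libraries, the 5p arm took 8.85% for Mir27a (exact 95% interval 8.47% to 9.25%, 1799 reads) and 1.28% for Mir27b (1.23% to 1.33%, 2766 reads). It took 3.63% for the 2 Mir24 hairpins summed (3.51% to 3.76%, 3233 reads) and 0.244% for Mir23b (0.223% to 0.266%, 510 reads). For Mir23a it took 2 of 53884 reads, 0.0037% (0.0004% to 0.0134%), and both reads were in PS19 replicate 7. The intervals cover counting error only, since reads without molecular identifiers are not independent molecules. Over the pooled reads Mir27a thus kept the highest share of its 5p arm, and by mean signal miR-27a-5p (115) came far nearer to miR-27b-5p (173) than the 3p arms of the same hairpins did, with miR-27b-5p 1.5 times miR-27a-5p by the ratio of means and higher in 15 of 16 libraries. miR-24-2-5p (154) exceeded miR-24-1-5p (48.6) in 16 of 16 libraries, with a ratio of means of 3.18. The precursor entries had the opposite order by mean, with mir-24-1 at 20.2 and mir-24-2 at 8.41, so the 2 measures of the Mir24 copies disagreed.

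miR-27a-5p had the smallest p-value of the 11 other arms and precursor entries tested, of which 0 had an unadjusted limma p under 0.05, beside 4.0% of all features. Its normalized signal ran from 49.0 through a median of 120 to 317 in PS19 and from 42.9 through 78.7 to 148 in WT. Of the PS19 libraries, 6 of 8 lay above the WT median, and the groups overlapped. The mean was 143 ± 84.5 in PS19 and 87.6 ± 37.5 in WT, and PS19 lay 0.61 higher on the log2 scale (SE 0.34, 95% interval -0.09 to 1.30, limma p = 0.0853; exact permutation p = 0.120) and an adjusted limma p of 1.0. Its call turned on the processing, with an unadjusted p under 0.05 in 6 of 12 other settings and a range from 0.0144 to 0.543. The limma p was 0.0235 when values were scaled to the miRNA total, the edgeR p on recovered reads was 0.0468, and with the code letter as a term the difference was 0.34 with a limma p of 0.543. Without PS19 replicate 8 or WT replicate 4 the limma p was 0.0203 or 0.0451, and without PS19 replicate 3 the difference was 0.41.

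The other 5p arms differed less between PS19 and WT, with log2 differences of 0.19 for miR-24-2-5p (exact permutation p = 0.63), 0.09 for miR-27b-5p (exact p = 0.709), 0.03 for miR-24-1-5p (exact p = 0.913) and -0.04 for miR-23b-5p (exact p = 0.894). The share of the 5p arm per library was 10.3% ± 2.90 in PS19 and 8.25% ± 2.65 in WT for Mir27a, 1.51% ± 0.397 and 1.30% ± 0.372 for Mir27b, 3.87% ± 0.661 and 3.36% ± 0.452 for Mir24, and 0.294% ± 0.199 and 0.276% ± 0.0995 for Mir23b (n = 8 each). The 3p to 5p ratio of Mir27a ran from 5.71 through a median of 9.33 to 17.4 in PS19 and from 7.34 through 11.0 to 28.1 in WT, with a log2 difference of -0.37 (exact permutation p = 0.206). For Mir27b and Mir23b the log2 differences of this ratio were -0.23 (exact p = 0.282) and 0.07 (exact p = 0.862).

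**Figure D4:**
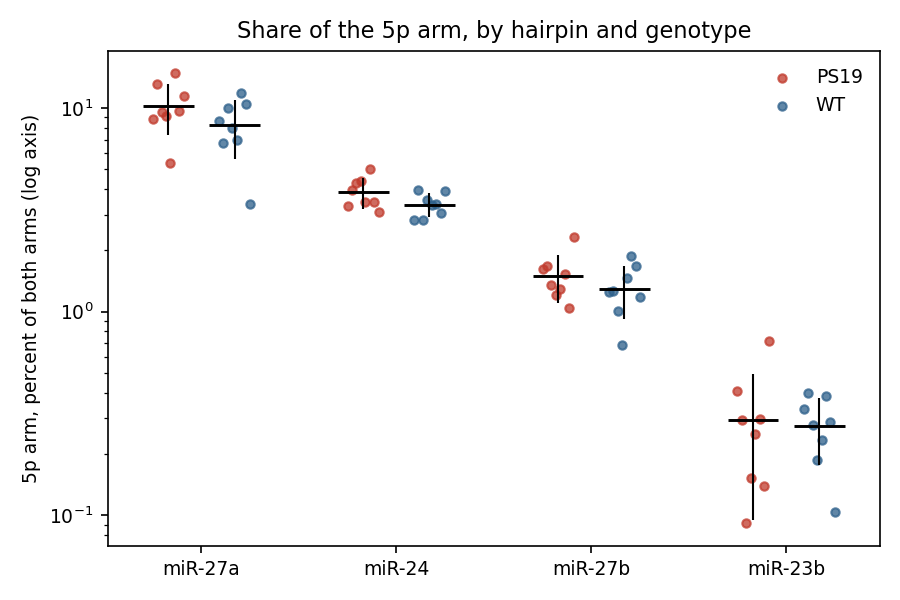
Share of the 5p arm among the normalized signal of both arms of a hairpin, in percent on a log axis, in each library by genotype, with 1 point per library and black bars at the mean with SD. Mir27a has the highest group means, at 10.3% ± 2.90 in PS19 and 8.25% ± 2.65 in WT, although in WT replicate 8 it is at 3.37% and Mir24 at 3.93%, and genotypes overlap for every hairpin.

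The table also listed each hairpin itself, under its precursor name. The entry of mir-23b stood apart from the other hairpins of the clusters, with a mean of 1010 against 203 for mir-27b, 43.0 for mir-23a, 20.2 for mir-24-1, 9.26 for mir-27a and 8.41 for mir-24-2. As a percentage of its mature 3p arm, mir-23b was at 7.98% ± 0.790 in PS19 and 7.36% ± 0.478 in WT, while mir-27b was at 1.46% and 1.63% and the other 4 entries at 0.159% to 1.26% (group means). Over the 122 precursor entries whose mature arms summed to a mean of at least 500, the median was 1.07%, and mir-23b at 7.75% was 29th. Which reads the authors' pipeline placed on a precursor instead of a mature entry was not given in the sources used here. Between genotypes the precursor differences were led by 0.67 on the log2 scale for mir-27a (limma p = 0.207, exact permutation p = 0.28), at a mean of 9.26, which was 0.29 without WT replicate 6, where mir-27a was at 0, followed by -0.32 for mir-27b (limma p = 0.340, exact p = 0.386). mir-23b differed by 0.15, mir-24-1 by 0.07, mir-23a by -0.08 and mir-24-2 by -0.21. With the code letter as a term this order changed, with 0.25 for mir-27a, -0.69 for mir-27b and -0.46 for mir-24-1.

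The 5 members rose and fell together from library to library, as many other mature miRNAs did with them. Over the 16 libraries, the 10 pairs of members had a Pearson r of 0.854 to 0.949 and a Spearman rho of 0.747 to 0.924 on log2(value + 1), with two-sided permutation p-values adjusted over the 10 pairs of at most 4e-05 for r and 0.00139 for rho. The closest pair was miR-23a-3p with miR-24-3p by r (0.949) and miR-24-3p with miR-27b-3p by rho (0.924). Without the 2 libraries farthest from the median, r was 0.747 to 0.935. Within PS19 it was 0.858 to 0.959 and within WT 0.786 to 0.964 (n = 8 each). The members share the size factor of each library, and a member's median r with the 511 other mature miRNAs was 0.53 to 0.64, with a 95th percentile of 0.80 to 0.90. When values were scaled to the miRNA total, an alternative chosen after seeing the data, the 10 pairs kept an r of 0.591 to 0.869 and a rho of 0.591 to 0.838, while the median r with the other mature miRNAs was -0.0032 to 0.11 and its 95th percentile 0.53 to 0.66. Of the 10 pairs, 8 lay above the 95th percentile of both of their members on this scale and 5 did so under the authors' scaling. The lowest pair, miR-24-3p with miR-27a-3p at 0.591, lay below that of both members (0.664 and 0.608).

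**Figure D5:**
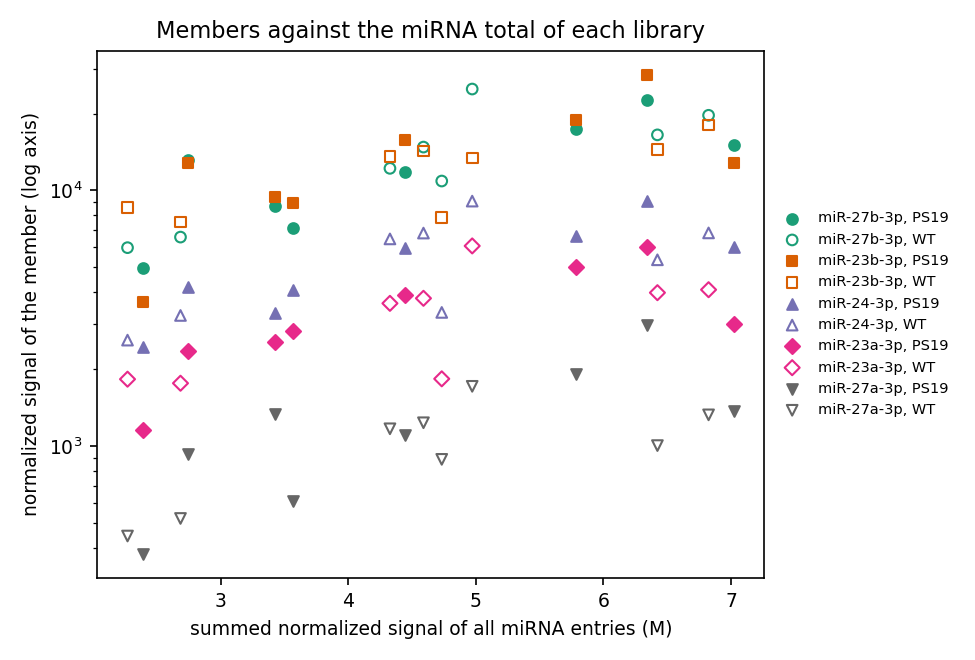
Normalized signal of each member against the summed miRNA signal of the library, with a log axis for the member, a linear axis for the miRNA signal and 1 point per library and member. Filled points are PS19 and open points WT. WT replicate 7, with the lowest miRNA signal at 2.27 M, and PS19 replicate 8 have low values of the members, while PS19 replicate 7, at 2.75 M, has mid-range values of miR-27b-3p (13139) and miR-23b-3p (12769).

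Outside the clusters, the mature miRNAs with the most similar pattern over the 16 libraries included several of high abundance. For miR-23a-3p they were miR-126a-3p, an endothelial miRNA (r = 0.925), miR-132-5p from a neuronal activity-regulated hairpin (0.915) and miR-5129-3p (0.901). For miR-27a-3p they were miR-126a-3p again (0.939), miR-455-5p (0.920) and miR-146b-5p of the miR-146 family known from immune cells (0.914). For miR-24-3p they were miR-30a-5p (0.961), miR-126a-3p (0.953) and miR-181a-1-3p (0.953). For miR-23b-3p they were miR-100-5p (0.874), miR-181d-5p (0.873) and miR-21a-5p (0.863). For miR-27b-3p they were miR-30e-5p (0.958), miR-181d-5p (0.957) and miR-25-3p (0.956). Each list stops at 3 miRNAs, and the third for miR-27b-3p lay above every r given here for miR-126a-3p. The absence of miR-126a-3p from a list therefore does not make likeness to it particular to the a cluster. Scaled to the miRNA total, miR-126a-3p was still among the 3 most similar to miR-23a-3p (0.764) and miR-27a-3p (0.834), but not to miR-24-3p.

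Because the members are known from endothelial cells, glia and neurons, lists of cell type miRNAs were set beside them. The brain miRNAs miR-128-3p and miR-9-5p ranked 3rd and 7th among the mature miRNAs and the neuronal miRNAs miR-124-3p and miR-137-3p 42nd and 307th, and no listed miRNA was at 0 in all libraries. The 5 vascular and mural miRNAs had a summed signal of 15263 to 61793 in PS19 and 17917 to 60796 in WT, a median log2 difference of -0.37, and 0 of 5 with an unadjusted limma p under 0.05. None passed among the 4 neuronal, 2 oligodendrocyte, 2 blood and 3 muscle miRNAs tested. Of the 2 microglial and immune miRNAs tested, of 5 listed, 1 had an unadjusted p under 0.05, beside 4.0% of all features. It was miR-155-5p, at 0.78 higher in PS19 on the log2 scale (limma p = 0.0167, exact permutation p = 0.0204, adjusted limma p 1.0). The other one tested, miR-146a-5p, differed by 0.36 (limma p = 0.294, exact p = 0.349). The 3 below the filter did not share a direction, with log2 differences of 1.21 for miR-142a-3p (exact permutation p = 0.0476, 7 of 8 PS19 libraries above the WT median), 0.10 for miR-142a-5p (exact p = 0.785) and -0.58 for miR-223-3p (exact p = 0.116). The summed signal of that list was 571 to 3013 in PS19 and 433 to 1539 in WT. The part of cell composition in the values of the members was not tested.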

How the data were processed

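Small RNA from prefrontal cortex was sequenced single-end by the authors, aligned with STAR 2.5.3a inside COMPSRA and compared with DESeq2 1.42.1, per the labels. The labels name mm10. The deposited values are a normalized signal, read counts that the authors divided by 1 size factor per library. Per library, 100% of values were whole multiples of 1 step (tolerance 0.01), which gave whole reads, with weaker evidence in WT replicates 4 and 6, where a read is worth nearly 1. The deposited table also holds the authors' log2 fold changes with SE, Wald score and p-values, which were not used. No column was left unmapped (0 columns).

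Genotype was taken from the labels, and libraries are named by replicate number. Values were transformed as log2(value + 1), which understates changes of low features, features with a mean of at least 5 were kept (6024 of 18488), and limma 3.58.1 (lmFit, eBayes with trend, R 4.3.3) was fitted with genotype as the only term, with Benjamini-Hochberg adjustment over all of them. P-values are two-sided. Single values and ratios were compared by exact permutation over all assignments of libraries (smallest possible p 0.000155 for 8 against 8), and correlations by 100000 permutations, in Python 3.11.15 with scipy 1.17.1. Spread was between mice. The named miRNAs are the 5 members, the other arms and precursor entries of their hairpins, the 3 mature miRNAs most correlated with each member, and listed marker miRNAs. Members and lists were chosen with earlier results of these data known. The limma step was also run on simulated counts, whose outcome is not given here and is not used as support. Alternatives were the pseudocount (0.5, 5), the filter (none beyond 2 libraries above 0, or a mean of 20), scaling to the library or miRNA total, array weights, the replicate number, the code letter, each library left out, and count tests on recovered reads with edgeR 4.0.16 and DESeq2 1.42.0. With these, 265 (edgeR) and 283 (DESeq2) features had an unadjusted p under 0.05, and 0 and 15 an adjusted one. Positions are from GENCODE and sequences from RefSeq, both on GRCm38.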

Additional observations from a re-analysis of the deposited data

Results flagged for a closer look

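In 5 of 52 group values examined (members, 5p arms, precursor entries and ratios, in 8 libraries each), the gap of 1 extreme library to the next exceeded Dixon's 95% critical value, as a share of the range of its group, where chance gives about 2.6. miR-23a-5p was at 1.19 in PS19 replicate 7 and at 0 in the other PS19 libraries, which is the whole range. The miR-23a-3p to miR-23b-3p ratio was 0.453 in WT replicate 4, against 0.275 for the next WT library (0.742 of the range). The 3p to 5p ratio of Mir23b was 896 in WT replicate 8, against 512 for the next (0.587 of the range). The 3p to 5p ratio of Mir27a was 17.4 in PS19 replicate 5, against 10.2 for the next PS19 library (0.617), and 28.1 in WT replicate 8, against 13.7 for the next WT library (0.693).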

How the results depend on the processing

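No member had an unadjusted p under 0.05 under any alternative, with limma, edgeR or DESeq2 (140 values over the 5 members and all alternatives, smallest 0.172). The number of features with an unadjusted p under 0.05 was 241, and it was 680 without the filter, 136 with a mean of at least 20, 121 scaled to the miRNA total, 418 with array weights, 124 with the code letter as a term, and 167 (without WT replicate 8) to 322 (without PS19 replicate 1) with each library left out. DESeq2 gave 15 features with an adjusted p under 0.05, and every leave-one-out fit 0. Of the called features, 46.5% were higher in PS19, and 58.3% scaled to the library total, 62.8% scaled to the miRNA total, 56.6% with edgeR and 74.2% with the letter, which moved the median of the mature miRNAs from -0.13 to -0.33.

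With the replicate number as a block, 419 features had an unadjusted p under 0.05, and the miR-27a-3p to miR-27b-3p ratio (0.38) had a paired exact p of 0.0547. Deviations of same-numbered libraries had correlations of 0.045 to 0.456, all above 0 and over 0.1 in 6 of 8 numbers, and not every library correlated best with its own number. The numbers were therefore not taken to pair the libraries, though a shared factor in some numbers was not tested further. With the block the limma p of miR-27a-5p was 0.0144.

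Some log2 differences changed sign. That of miR-23a-3p became 0.030 scaled to the miRNA total and 0.026 with edgeR. With the letter, miR-27a-3p became -0.14, miR-23b-5p 0.060, miR-24-1-5p -0.22, miR-24-2-5p -0.14 and mir-24-1 -0.46. miR-23b-5p became 0.017 scaled to the miRNA total, and mir-23a 0.017 with edgeR. With no change of sign, the letter moved miR-27b-3p to -0.53, mir-27b to -0.69 and miR-23b-3p to 0.22, and miR-23b-3p was 0.22 with edgeR and 0.18 with DESeq2. mir-27a was 0.25 with the letter and 0.42 with a pseudocount of 5. Within the G libraries, a comparison chosen after seeing the data, the miR-27a-3p to miR-27b-3p ratio differed by 0.40 and the miR-23b-3p to miR-27b-3p ratio by 0.76.

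With each library left out, the difference ran from -0.17 to 0.17 for miR-23a-3p, -0.14 to 0.28 for miR-23b-3p, -0.19 to 0.085 for miR-24-3p, 0.04 to 0.46 for miR-27a-3p and -0.30 to 0.027 for miR-27b-3p. It ran from -0.17 to 0.10 for miR-23b-5p, -0.12 to 0.21 for miR-24-1-5p, -0.033 to 0.18 for miR-27b-5p, -0.22 to 0.22 for mir-23a, -0.044 to 0.40 for mir-23b and -0.10 to 0.22 for mir-24-1. Without a change of sign it ran from 0.011 to 0.37 for miR-24-2-5p, 0.41 to 0.79 for miR-27a-5p, 0.29 to 0.86 for mir-27a, -0.38 to -0.019 for mir-24-2 and -0.45 to -0.12 for mir-27b. For the ratios it ran from -0.11 to 0.051 (miR-23a-3p to miR-23b-3p), 0.29 to 0.45 (miR-27a-3p to miR-27b-3p), -0.37 to -0.19 (miR-23a-3p to miR-27a-3p), -0.012 to 0.11 (miR-24-3p to summed miR-27), -0.13 to 0.29 (miR-23b-3p to miR-23b-5p), 0.065 to 0.27 (miR-23b-3p to miR-27b-3p), 0.056 to 0.22 (miR-24-2-5p to miR-24-1-5p), -0.51 to -0.19 (miR-27a-3p to miR-27a-5p) and -0.32 to -0.11 (miR-27b-3p to miR-27b-5p). Without PS19 replicate 6 the miR-23a-3p to miR-27a-3p ratio had an exact p of 0.0420. The causes of these differences were not tested. The Mir23a 5p arm rests on 2 reads in all.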
